A study of Mus musculus with 14 samples.

Results

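The genes of the proteasome and its regulators were followed in the liver of mice given furan, a liver toxicant that forms in heated food and is oxidised in hepatocytes to a reactive dialdehyde. The members were the genes whose symbol began with Psm, a letter from a to g and a digit, with pseudogenes left out, and they were matched to the array probes by RefSeq accession. Of 51 such symbols in the reference, 50 had a probe and 48 were tested, against 20018 symbols with a probe and 21963 features tested on the whole array. Psma8, a subunit of the testis, and Psmb11, a subunit of the thymus, were not well above background on any array, and no probe was matched to Psme2b. None of the 48 tested genes passed at an adjusted p of 0.05 in any of the 3 comparisons between doses.

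All mice were female B6C3F1 animals, 5 to 6 weeks old per the labels, and all drank bromodeoxyuridine (BrdU) in their water for the last 5 days. The control group (n = 4) received corn oil by gavage, and the other groups received furan by gavage at 1 mg/kg body weight (n = 5) or 8 mg/kg body weight (n = 5) for 3 weeks. Liver was taken 4 h after the last dose. BrdU was shared by all groups, so no difference below can speak to BrdU itself, and the submitters describe each dose group as 4 to 5 biological replicates. Every array carried the liver RNA of 1 mouse in Cy5 against a common mouse reference RNA in Cy3, and the value of a gene is the log2 ratio of liver over reference. The dye orientation was the same throughout, so a dye effect can enter a gene's level but not a difference between groups.

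The proteasome degrades proteins tagged with ubiquitin. Its 20S core is a barrel of alpha rings (Psma genes) around beta rings (Psmb genes), of which Psmb5, Psmb6 and Psmb7 encode the catalytic subunits. Under interferon these are replaced by Psmb8, Psmb9 and Psmb10, which form the immunoproteasome and favour peptides for MHC class I. The 19S cap holds ATPases (Psmc genes) that unfold the substrate and non-ATPase subunits (Psmd genes) that bind and trim ubiquitin. The 11S activator PA28 (Psme1 and Psme2) can take the place of the cap. Transcription of the subunit genes is known to be driven by NRF1 (Nfe2l1) when the proteasome is inhibited, and in part by NRF2 (Nfe2l2) under oxidative or electrophilic stress.

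The arrays gave 41.4% to 53.6% of 55681 probes well above background in the liver channel, with no saturated spot and correlations between arrays of 0.970 to 0.992. Of the 48 proteasome genes, 47 were well above background on all 14 arrays, and Psmc3ip on 9. Their median log2 liver signal was 12.6, against 8.30 over all features tested, so they were among the bright features. Their median residual SD was 0.112, against 0.143 over all features. The 14 arrays lay on 5 slides, and slides 1 to 4 each held 1 mouse of every group. The share of a gene's variance that lay between slides ran from 7.28% (Psmd11) to 84.4% (Psma3), and the slide was a block in the fit. With 5 slides and 14 arrays such a share is above 0 even without a slide effect. It was not computed over all features. The 8 hepatocyte markers tested had mean log2 ratios of 6.44 to 8.22 on every array, far above the reference RNA. The mice on slide 3 had means of 7.92 to 8.22, and those on the other slides reached 7.09 at most.

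In control liver most proteasome genes stood close to the reference RNA. The mean log2 ratio of liver over reference was above 0 for 33 of 48 genes and lay within 1 log2 unit of 0 for 45. The exceptions were Psme3, the nuclear activator PA28 gamma, at 2.17 ± 0.09 (SD, n = 4), Psme4, the activator PA200, at 1.16 ± 0.34, and Psmc3ip, a factor of meiotic recombination named for its binding to Psmc3, at −2.47 ± 0.38. Psmd9 (0.84) and Psma4 (0.79) followed at the upper end, and Psmg4 (−0.93) at the lower end. These ratios carry any dye effect and describe liver against a mixed reference, and they set no gene's level against another's.

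**Figure D1:**
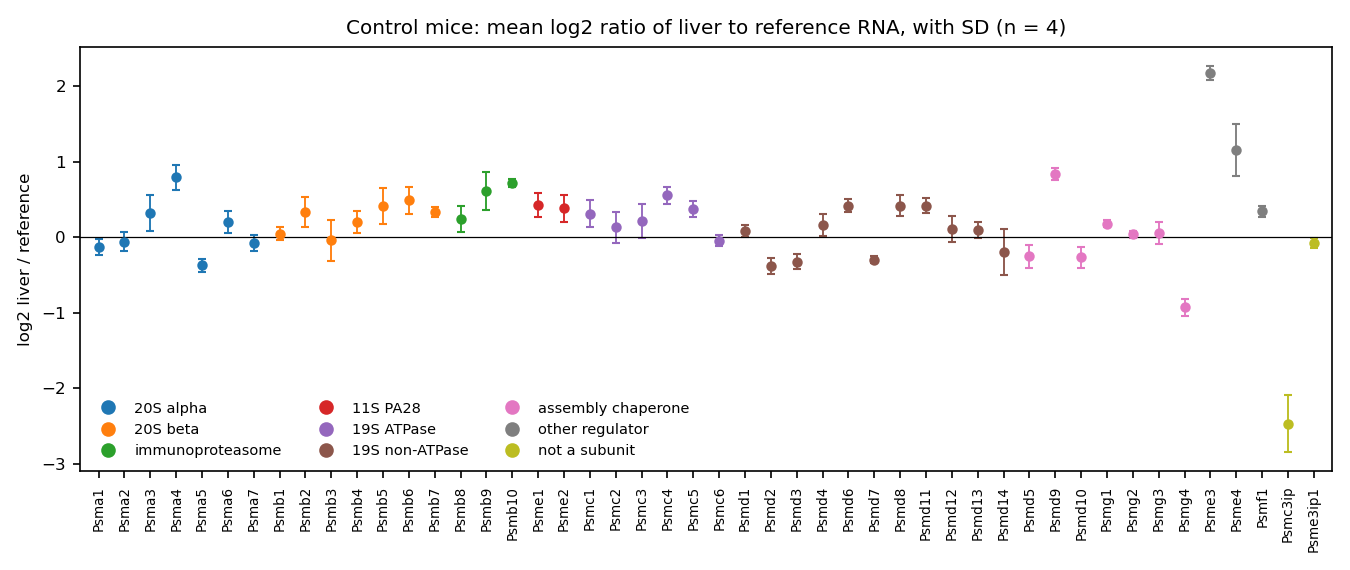
Mean log2 ratio of liver over reference RNA in the 4 control mice for each of the 48 tested genes (points, coloured by class) with the SD (bars). Most genes lie within 1 log2 unit of 0, Psme3 stands at 2.17 and Psmc3ip at −2.47.

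At 8 mg/kg against control, 0 of 48 proteasome genes passed, where 895 of 21963 features did (4.08%). In whole liver, fewer cells of a type and less RNA per cell cannot be told apart. Of the 895 features 66.8% were higher at 8 mg/kg, a share that was 53.7% with the liver channel alone and 96.4% under median centring in place of loess. By limma without adjustment, 7 of 48 (14.6%) had a p under 0.05, against 20.3% of all features. They were Psma3, Psmb5, Psmb6, Psmc2, Psmd5 and Psmd12, with fitted differences above 0, and Psmd9, below 0. The fitted differences ran from −0.25 (Psmd9) to 0.32 (Psmd5) on the log2 scale, which is 1.19-fold lower to 1.25-fold higher. The median over the 48 genes was 0.02, against 0.002 over all features, and lay below 0 with the scanner's processed signals (−0.033), the authors' deposited ratios (−0.017) and the liver channel alone (−0.037). The median size of a difference was 0.071, against 0.112 over all features. The 95% interval lay within 1.5-fold either way for 48 of 48 genes, against 92.2% of features, and the outermost bounds were −0.467 (Psmb8) and 0.531 (Psmd5). Control and 8 mg/kg mice did not overlap for 2 genes (4.17%), Psmd5 and Psmd9, against 5.59% of features. Fitted differences were above 0 for 29 of 48 genes (60.4% against 50.5% of features).

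At 1 mg/kg against control, 0 of 48 passed, as did 0 of 21963 features (0%). By limma without adjustment, Psmb5 and Psmc3 had a p under 0.05 (4.17% against 6.89% of features). The interval lay within 1.5-fold for 47 of 48 genes, against 96.7% of features, and the exception was Psme4, from −0.622 to 0.113. Fitted differences were above 0 for 35 of 48 genes (72.9% against 60.5%). The groups overlapped for every one of the 48, and failed to overlap for only 182 of 21963 features. At 8 against 1 mg/kg, 0 of 48 passed, where 1157 features did (5.27%), 45.5% of them higher at 8 mg/kg (64.3% with the scanner's processed signals and 68.3% under median centring). Psmb4, Psmd2 and Psmd9 had an unadjusted p under 0.05 by limma (6.25% against 21.4% of features), each lower at 8 mg/kg. The interval lay within 1.5-fold for 48 of 48 genes, against 93% of features. Fitted differences were above 0 for 23 of 48 genes (47.9% against 43.6%), and only Psmb4 (2.08% against 3.62% of features) had groups that did not overlap. Psmd2 passed, at an adjusted p of 0.0478, when mouse 4 at 8 mg/kg was left out. The comparisons with control share their 4 control mice and are not independent of each other.

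**Figure D2:**
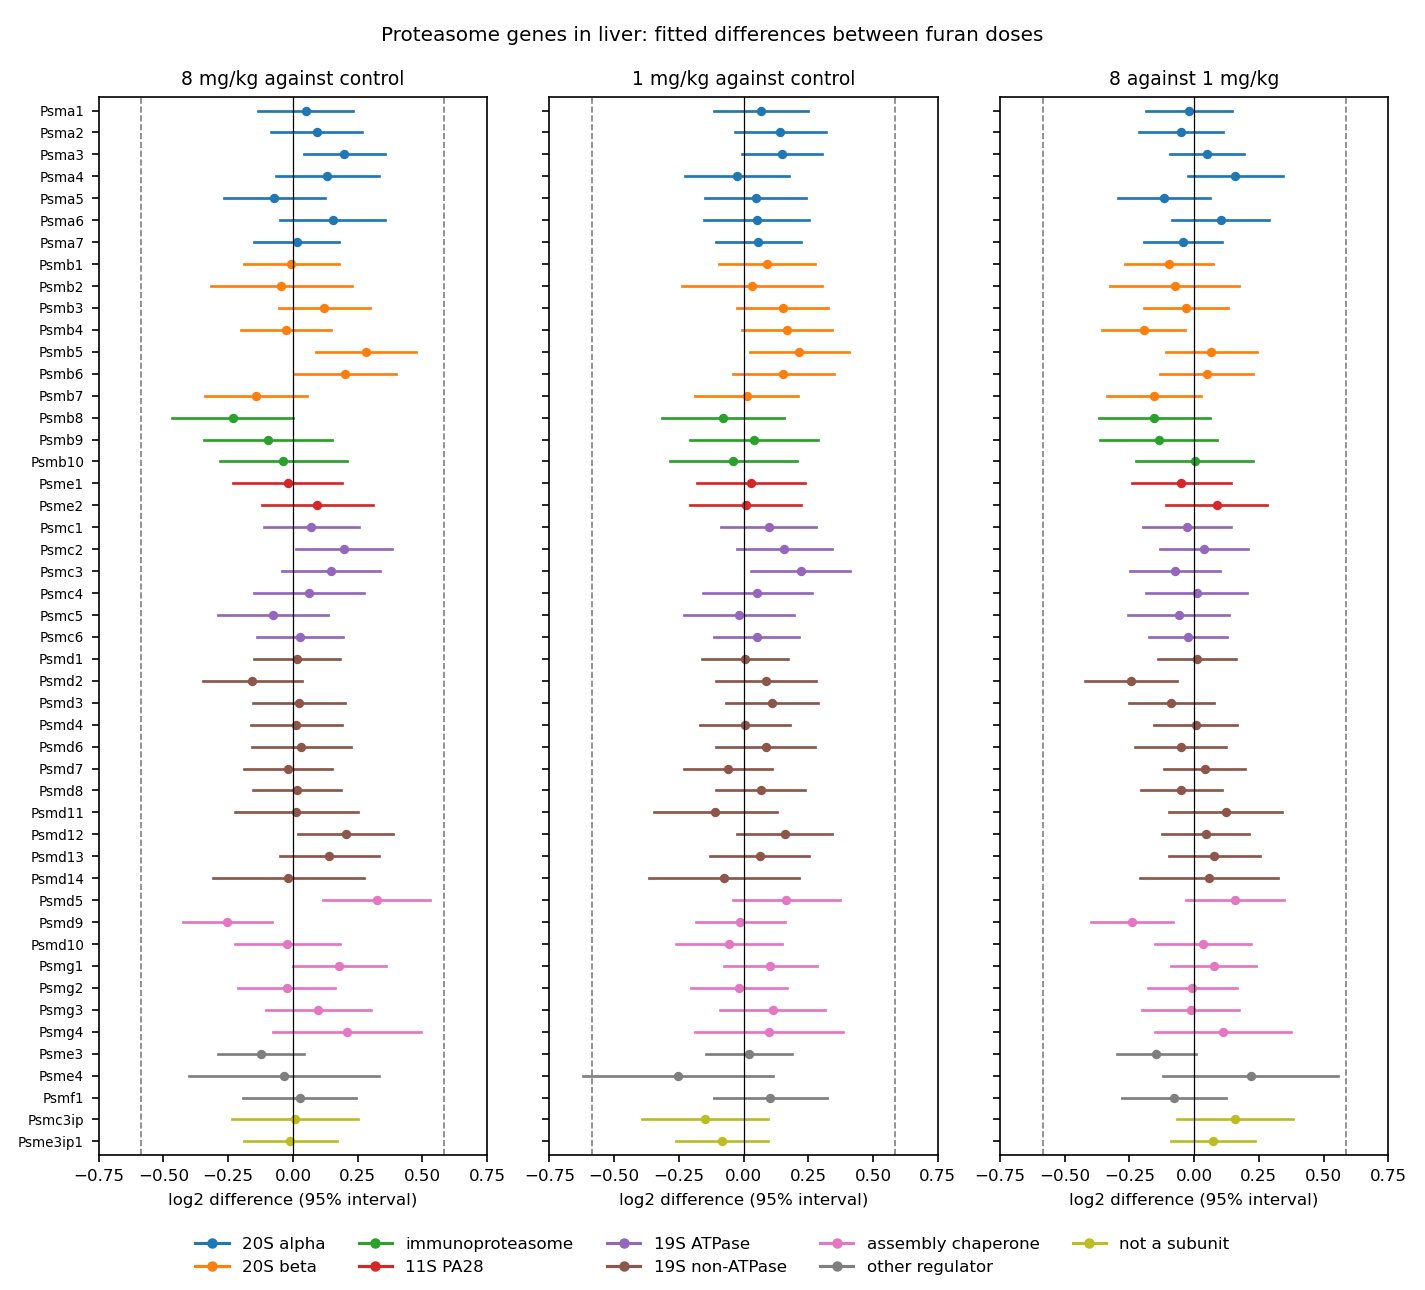
Fitted log2 difference (points) and 95% interval (lines) of each of the 48 tested genes in the 3 comparisons, coloured by class, with dashed lines at a 1.5-fold difference either way. Only the Psme4 interval at 1 mg/kg against control crosses a dashed line, reaching −0.622.

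**Figure D3:**
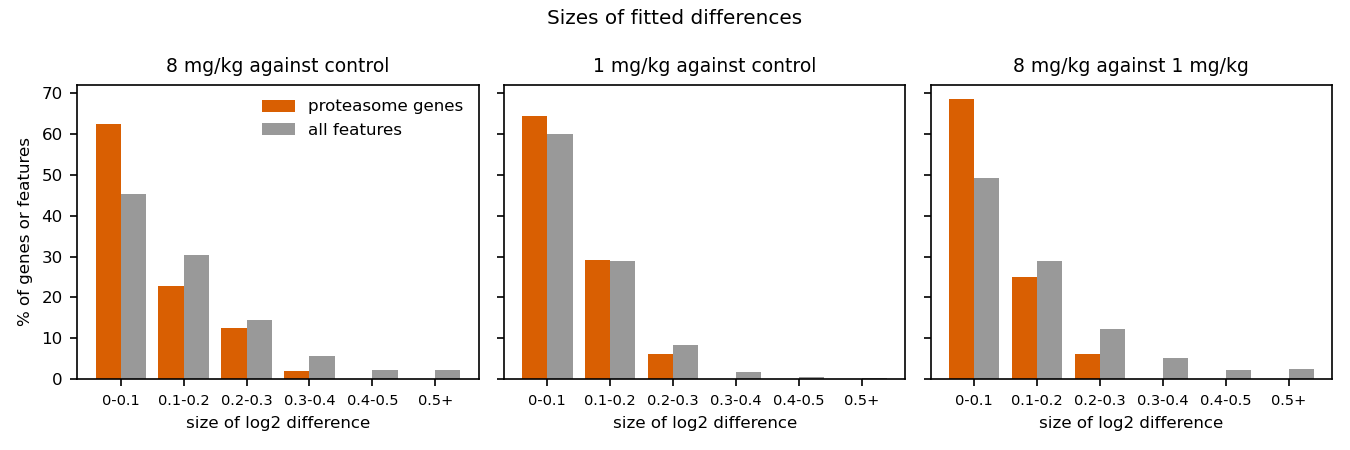
Share of the 48 proteasome genes (orange) and of the 21963 features (grey) by size of the fitted log2 difference in the 3 comparisons. At 8 mg/kg against control 62.5% of the proteasome genes and 45.3% of all features lie under 0.1, and none of the proteasome genes reaches 0.4.

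The 20S core showed no change that passed. Against control, at 8 mg/kg, 9 of its 14 genes had a fitted difference above 0, and the median was 0.07, with a range from −0.14 (Psmb7) to 0.28 (Psmb5). The sign of that median was not settled, since it was −0.04 with the scanner's processed signals, −0.01 with the authors' deposited ratios and −0.06 with the liver channel alone. At 1 mg/kg the median was 0.08, with 13 of 14 genes above 0, against 60.5% of all features. That median was −0.001 with processed signals and −0.007 from the liver channel alone. At 8 against 1 mg/kg it was −0.04. Psmb4, a beta subunit without catalytic activity, was named after its values were seen. Its ratios were 0.10, 0.21, 0.41 and 0.10 in the controls, 0.37, 0.39, 0.26, 0.44 and 0.37 at 1 mg/kg, and 0.24, 0.23, 0.09, 0.16 and 0.13 at 8 mg/kg. All mice at 8 mg/kg lay below all mice at 1 mg/kg while the controls spanned both, and the difference of −0.19 had an adjusted p of 0.146.

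Psmb5 encodes the chymotrypsin-like catalytic subunit of the constitutive core. Its log2 ratios were 0.18, 0.40, 0.74 and 0.35 in the controls, 0.54, 0.32, 0.64, 0.72 and 0.69 at 1 mg/kg, and 0.69, 0.82, 0.54, 0.62 and 0.58 at 8 mg/kg. Control mouse 3 lay among the treated mice, so the groups overlapped, and the other 3 controls lay below all mice at 8 mg/kg. The fitted difference at 8 mg/kg was 0.28 ± 0.09 (SE), with an adjusted p of 0.0954, and at 1 mg/kg it was 0.22. Within slides 1 to 4 the 8 mg/kg mouse exceeded the control by 0.51, 0.18, 0.09 and 0.28. A further probe of Psmb5 gave 0.12, and the value fell to 0.07 under the setting that moved it most.

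Psmb6 encodes the caspase-like catalytic subunit and was looked at after its values were seen. Its log2 ratios were 0.36, 0.47, 0.75 and 0.39 in the controls and 0.81, 0.71, 0.34, 0.68 and 0.55 at 8 mg/kg. The groups overlapped, and the difference of 0.20 had an adjusted p of 0.230. It was 0.03 with the processed signals, 0.07 with the liver channel alone, 0.10 with the authors' deposited ratios and 0.27 under median centring. Psmb7, the trypsin-like subunit, had 0.28, 0.41, 0.37 and 0.28 in the controls and 0.20, 0.06, 0.28, 0.40 and 0.08 at 8 mg/kg. Psmb7 was likewise named after its values were seen, and its fitted difference was −0.14, with an interval from −0.341 to 0.055 and an adjusted p of 0.414. No test compared it with Psmb5 or Psmb6. No promoter window was found for Psmb7, so it was left out of the motif search that follows. The 7 tested beta genes of the core had 4 windows in that search. Psma3, a subunit of the alpha ring also named after its values were seen, differed by 0.20 with an adjusted p of 0.140. Its ratios ran from 0.12 to 0.67 in the controls and from 0.25 to 0.83 at 8 mg/kg, and 84.4% of its variance lay between slides.

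The promoters of Psmb5 and Psmb6 are shown because they hold the core of the antioxidant response element, TGACNNNGC, which NRF2 and NRF1 are known to bind. The windows run from 250 bases before to 50 bases after the start site, from RefSeq on GRCm38.p6, and were searched on both strands. Psmb5 lies on the minus strand at chr14:54617946-54618245 and Psmb6 on the plus strand at chr11:70525107-70525406. Capitals mark the match, which begins 47 bases before the start site in Psmb5 and 9 bases before it in Psmb6.
Psmb5: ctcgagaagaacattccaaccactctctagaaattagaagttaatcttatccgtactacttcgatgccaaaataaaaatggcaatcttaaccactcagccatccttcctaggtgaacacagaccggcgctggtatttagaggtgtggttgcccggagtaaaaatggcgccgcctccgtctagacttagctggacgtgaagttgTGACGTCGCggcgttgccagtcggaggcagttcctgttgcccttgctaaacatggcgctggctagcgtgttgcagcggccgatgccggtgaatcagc
Psmb6: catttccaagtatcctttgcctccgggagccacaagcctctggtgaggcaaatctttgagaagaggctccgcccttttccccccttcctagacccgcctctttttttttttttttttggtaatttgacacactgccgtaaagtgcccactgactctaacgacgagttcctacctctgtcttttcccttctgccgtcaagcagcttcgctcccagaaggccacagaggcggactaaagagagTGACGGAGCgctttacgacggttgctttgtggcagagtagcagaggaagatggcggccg
Windows were found for 43 of the 51 genes. The core was in 6 of their 47 windows (12.8%), against 12.4% of 32851 windows of all genes. The other 4 were those of Psmc6, Psmd9, Psmd12 and Psme4. A match is a description of these letters and shows no binding.

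No gene of the 19S cap passed either. At 8 mg/kg against control its 17 tested genes had a median of 0.02, from −0.16 (Psmd2) to 0.20 (Psmd12), and the median was −0.02 with processed signals and −0.03 from the liver channel alone. The 6 ATPases had a median of 0.07 (−0.03 with the processed signals), and the 11 non-ATPase subunits 0.02 (−0.05 with the liver channel alone). At 1 mg/kg the 17 genes had a median of 0.06, and −0.02 with the processed signals. Psmc2, an ATPase of the base, had ratios of −0.04, 0.17, 0.40 and −0.00 in the controls and 0.33, −0.11, 0.10, 0.40 and 0.29 at 1 mg/kg. The 8 mg/kg mice had 0.27, 0.53, −0.12, 0.27 and 0.27. The groups overlapped, and the difference at 8 mg/kg was 0.20 ± 0.09 with an adjusted p of 0.216. It was 0.06 with the liver channel alone and 0.31 under median centring.

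Psmd12, a scaffold subunit of the lid, had ratios of −0.11, 0.30, 0.19 and 0.05 in the controls and 0.17, 0.33, 0.27, 0.23 and 0.32 at 1 mg/kg. The 8 mg/kg mice had 0.22, 0.47, 0.21, 0.30 and 0.35, and the groups overlapped through control mouse 2. The difference at 8 mg/kg was 0.20 ± 0.09 with an adjusted p of 0.199, but the gene's dimmer probe gave −0.07, so its 2 probes differed in sign. With the liver channel alone the difference was 0.04, and under median centring it was 0.32. Psmd2, the largest scaffold of the base with Psmd1, was named after its values were seen. Its ratios were −0.45, −0.30, −0.27 and −0.48 in the controls, −0.35, −0.11, −0.27, −0.18 and −0.40 at 1 mg/kg, and −0.50, −0.66, −0.45, −0.40 and −0.52 at 8 mg/kg. Against 1 mg/kg the 8 mg/kg mice differed by −0.24, with an adjusted p of 0.103. Psmd14, the deubiquitinase of the lid, had one of the largest residual SDs of these genes (0.238), and its difference at 8 mg/kg was −0.02 with an interval from −0.308 to 0.273.

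The assembly chaperones, which build the core and the cap and leave them, held both ends of the range. Their median at 8 mg/kg was 0.10 over 7 genes, and it was 0.014 with the liver channel alone, 0.29 under median centring and 0.021 to 0.167 when 1 mouse was left out. Psmd5, a chaperone of the 19S base, had ratios of −0.47, −0.21, −0.21 and −0.12 in the controls and −0.03, −0.14, −0.18, −0.21 and 0.10 at 1 mg/kg. The values at 8 mg/kg were 0.25, −0.09, 0.04, 0.19 and −0.06, so all 5 mice stood above all 4 controls. The difference was 0.32 ± 0.10 with an adjusted p of 0.0764. Within slides it was 0.72, 0.14, 0.12 and 0.31, the first value resting on control mouse 1, without which the fitted difference was 0.21. Psmd5 passed under median centring in place of loess (0.53, adjusted p 0.0225), a setting that moved the median of all features to 0.14.

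Psmd9, another chaperone of the base, was named after its values were seen. Its ratios were 0.75, 0.80, 0.89 and 0.93 in the controls and 0.74, 1.16, 0.83, 0.77 and 0.88 at 1 mg/kg. The values at 8 mg/kg were 0.47, 0.53, 0.73, 0.75 and 0.70, below all 4 controls, though mouse 4 at 8 mg/kg and control mouse 1 lay almost level. The difference was −0.25 ± 0.08 with an adjusted p of 0.0941 against control and −0.24 with an adjusted p of 0.0741 against 1 mg/kg. Within slides 1 to 4 it was −0.28, −0.10, −0.36 and −0.18 against control, and a further probe gave −0.23. With the liver channel alone it was −0.33 and passed, at an adjusted p of 0.0314, and under median centring it was −0.048, with an adjusted p of 0.860. Psmg1 to Psmg4, the chaperones of the 20S core, differed at 8 mg/kg by 0.18, −0.02, 0.10 and 0.21, and Psmd10 (gankyrin) by −0.02.

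The promoters of Psmd5 and Psmd9 are shown as those of the genes with the highest and the lowest fitted difference at 8 mg/kg. Psmd5 lies on the minus strand at chr2:34870913-34871212 and holds neither motif searched. Psmd9 lies on the plus strand at chr5:123227940-123228239, and its capitals mark a match to GAAA, any 2 bases and GAAA again, the core of the interferon-stimulated response element, and then one to TGACNNNGC, which do not overlap.
Psmd5: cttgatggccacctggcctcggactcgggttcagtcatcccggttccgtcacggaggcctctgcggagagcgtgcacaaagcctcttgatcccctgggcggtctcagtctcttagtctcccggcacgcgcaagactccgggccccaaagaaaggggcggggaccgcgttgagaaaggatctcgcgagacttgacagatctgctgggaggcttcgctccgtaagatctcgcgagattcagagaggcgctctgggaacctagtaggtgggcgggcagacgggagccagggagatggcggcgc
Psmd9: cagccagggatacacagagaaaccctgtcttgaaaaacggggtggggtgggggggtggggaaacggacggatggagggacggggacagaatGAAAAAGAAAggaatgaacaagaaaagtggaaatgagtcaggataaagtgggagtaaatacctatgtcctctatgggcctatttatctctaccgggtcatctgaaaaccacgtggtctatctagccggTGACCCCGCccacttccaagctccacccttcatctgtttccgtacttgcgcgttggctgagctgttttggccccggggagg
The Psmd9 matches begin 159 and 31 bases before the start site.

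**Figure D4:**
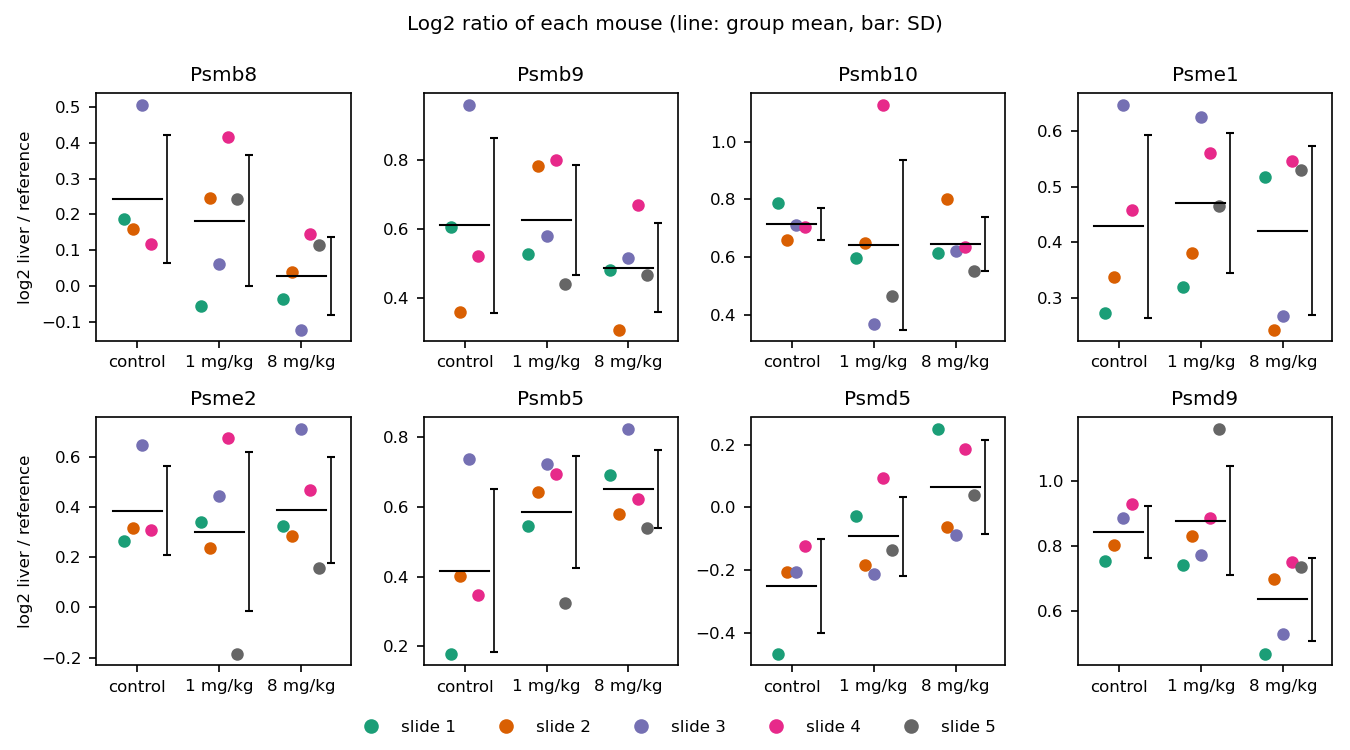
Log2 ratio of liver over reference in each mouse for the 3 immunoproteasome genes, both PA28 genes, Psmb5, Psmd5 and Psmd9, coloured by slide, with the group mean (line) and SD (bar), each panel on its own scale. Psmd5 lies above all controls and Psmd9 below all controls in the 5 mice at 8 mg/kg, and the other 6 genes overlap between control and 8 mg/kg.

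The immunoproteasome genes had fitted differences below 0 at 8 mg/kg, all 3 short of the threshold. Psmb8, which replaces Psmb5, had log2 ratios of 0.19, 0.16, 0.51 and 0.12 in the controls and −0.06, 0.24, 0.25, 0.06 and 0.41 at 1 mg/kg, against −0.04, −0.12, 0.11, 0.14 and 0.04 at 8 mg/kg. Control mouse 3 stood above the rest, and control and 8 mg/kg mice overlapped only through the mouse at 0.14. The difference was −0.23 ± 0.11 with an adjusted p of 0.248 and an interval from −0.467 to 0.001. Without control mouse 3 it was −0.11. Within slides 1 to 4 it was −0.22, −0.12, −0.63 and 0.03.

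Psmb9, which replaces Psmb6, had 0.60, 0.36, 0.96 and 0.52 in the controls and 0.53, 0.44, 0.78, 0.58 and 0.80 at 1 mg/kg, against 0.48, 0.52, 0.47, 0.67 and 0.31 at 8 mg/kg. Its difference at 8 mg/kg was −0.10, with an adjusted p of 0.687, and turned to 0.03 without control mouse 3 and to 0.09 under median centring. Psmb10, which replaces Psmb7, had 0.79, 0.66, 0.71 and 0.70 in the controls and 0.60, 0.47, 0.65, 0.37 and 1.13 at 1 mg/kg, against 0.61, 0.62, 0.55, 0.64 and 0.80 at 8 mg/kg. The 1 mg/kg mice spanned the widest range, and the difference at 8 mg/kg was −0.04 with an adjusted p of 0.893 (0.08 under median centring). The median of the 3 genes at 8 mg/kg was −0.10 over all mice, 0.08 under median centring, and −0.18, −0.05, −0.44 and 0.03 within slides 1 to 4. At 1 mg/kg it was −0.04, and it ranged within slides from −0.38 to 0.30.

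The PA28 genes overlapped across all groups. Psme1, PA28 alpha, had 0.27, 0.34, 0.65 and 0.46 in the controls and 0.32, 0.46, 0.38, 0.63 and 0.56 at 1 mg/kg, against 0.52, 0.27, 0.53, 0.55 and 0.24 at 8 mg/kg. The difference at 8 mg/kg was −0.02, with an interval from −0.230 to 0.189. Psme2, PA28 beta, had 0.27, 0.31, 0.65 and 0.31 in the controls and 0.34, −0.18, 0.24, 0.44 and 0.67 at 1 mg/kg, against 0.32, 0.71, 0.16, 0.47 and 0.29 at 8 mg/kg. Its difference was 0.09, with an interval from −0.119 to 0.307, and was −0.06 with the processed signals.

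The promoter of Psme1, on the plus strand at chr14:55578244-55578543, is shown because it is the member of the interferon-inducible group with a match to that interferon motif. Capitals mark the match, on the other strand, 9 bases after the start site.
Psme1: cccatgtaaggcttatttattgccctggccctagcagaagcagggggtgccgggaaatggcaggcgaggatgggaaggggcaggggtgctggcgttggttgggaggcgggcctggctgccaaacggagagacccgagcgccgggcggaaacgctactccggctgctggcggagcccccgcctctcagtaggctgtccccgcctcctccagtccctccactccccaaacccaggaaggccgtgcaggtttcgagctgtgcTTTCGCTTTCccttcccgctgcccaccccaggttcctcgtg
The motif was in 5 of the members' 47 windows (10.6%), against 3.44% of all windows, and the others were those of Psmb3, Psmd4, Psmd9 and Psmg4. None of the 3 windows of Psmb8, Psmb9 and Psmb10 held these letters.

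**Figure D5:**
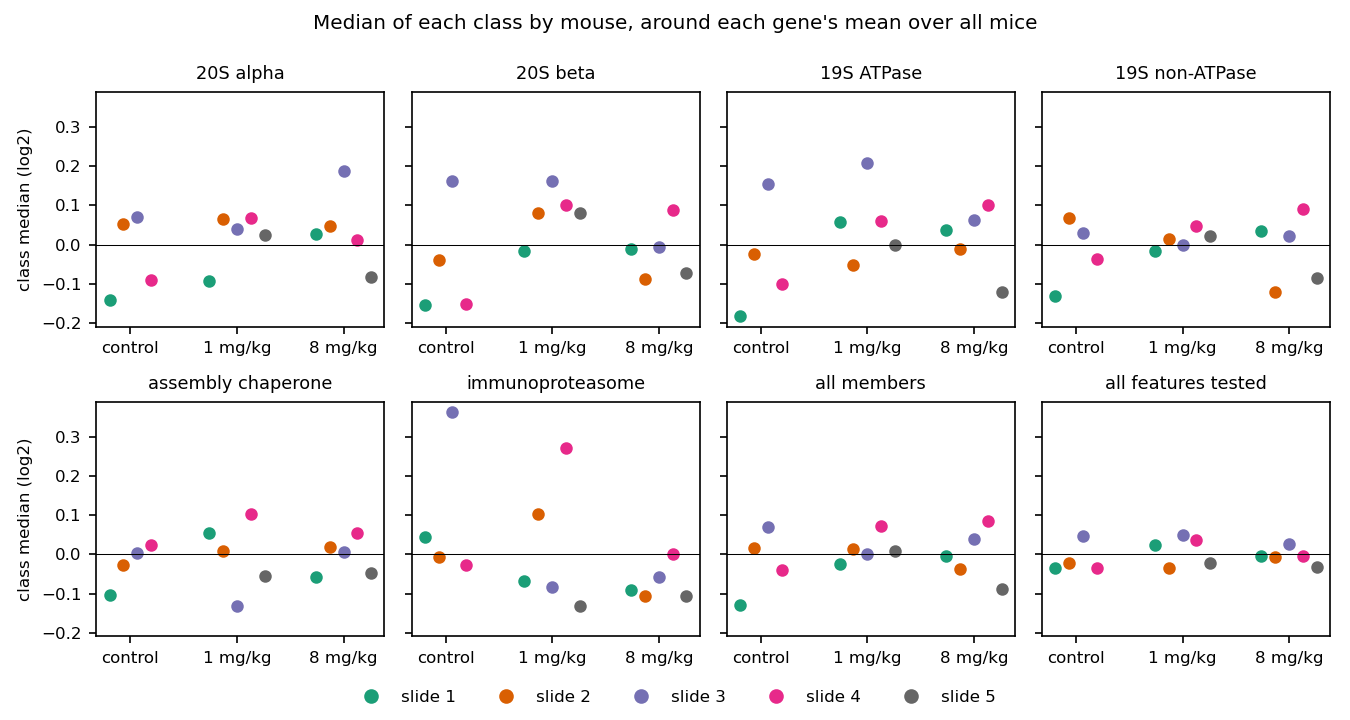
Median over the genes of a class in each mouse, after subtraction of each gene's mean over all 14 mice, coloured by slide, with all members and all features for comparison. The groups overlap in every panel, and control mouse 3 stands highest in the immunoproteasome panel at 0.362.

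The remaining regulators are the activators Psme3 and Psme4 and the inhibitor Psmf1 (PI31). Psme3 had ratios of 2.15, 2.31, 2.10 and 2.14 in the controls, 2.20, 2.51, 2.26, 1.97 and 2.28 at 1 mg/kg, and 2.05, 1.90, 2.24, 2.14 and 2.17 at 8 mg/kg. The groups overlapped, and the difference at 8 mg/kg was −0.12 with an adjusted p of 0.399 (0.09 under median centring). Psme4 had the largest residual SD of the 48 genes, 0.322, through 1 control mouse at 1.65 and 1 mouse at 8 mg/kg at 1.71, both far from the rest of their groups. Psmf1 differed by 0.03. Psmc3ip and Psme3ip1 carry member names but encode binding partners. Psme3ip1, a partner of PA28 gamma, had ratios of −0.14, −0.10, 0.03 and −0.08 in the controls, −0.22, −0.24, −0.03, −0.14 and −0.16 at 1 mg/kg, and −0.12, −0.16, −0.02, 0.02 and −0.16 at 8 mg/kg. The groups overlapped, and its difference at 8 mg/kg was −0.01, with an interval from −0.188 to 0.168.

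Some genes around the proteasome, taken from lists chosen with earlier results known, did pass. Nfe2l2 encodes NRF2 and had log2 ratios of −0.27, −0.30, −0.46 and −0.34 in the controls, −0.19, −0.65, −0.22, −0.38 and 0.13 at 1 mg/kg, and 0.40, 0.42, 0.13, 0.18 and 0.57 at 8 mg/kg. All mice at 8 mg/kg stood above all controls, and 1 mouse at 1 mg/kg reached the lowest of them. Nfe2l2 rose by 0.76 ± 0.11 against control (adjusted p 0.00184) and by 0.60 against 1 mg/kg (adjusted p 0.00454). The other 6 genes of the transcription list did not pass. Among them Nfe2l1 (NRF1) differed by −0.05 with an adjusted p of 0.853, and Sel1l, an adaptor of degradation at the endoplasmic reticulum, by −0.43 with an adjusted p of 0.0526. No test linked Nfe2l2 to the subunit genes. At 1 mg/kg against control 0 of the 17 proteasome-associated factors below passed by limma. Of the 14 interferon and MHC class I genes below 0 passed, as did 0% of features. In either list 0 had an unadjusted p under 0.05, against 6.89% of features.

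Of 17 tested factors that bind the proteasome or bring substrates to it, 2 rose at 8 mg/kg against control, where 2.72% of features did. Ubqln1, a shuttle for ubiquitinated proteins, had −0.55, −0.37, −0.35 and −0.42 in the controls and 0.28, 0.15, −0.25, −0.08 and −0.16 at 8 mg/kg, with no overlap. It rose by 0.46 ± 0.10 (adjusted p 0.0180) and by 0.52 against 1 mg/kg (adjusted p 0.00463). The first call was lost without control mouse 1 or 3 or mouse 1 at 8 mg/kg (adjusted p 0.0630 to 0.0824). Zfand2a, an arsenite-inducible partner of the 19S cap, rose by 0.37 ± 0.09 (adjusted p 0.0303). Its ratios were −1.48, −1.63, −1.31 and −1.53 in the controls and −1.12, −0.86, −1.55, −1.32 and −1.15 at 8 mg/kg, so the groups overlapped. Its call was lost without any one of the 4 controls or mice 1, 2 and 5 at 8 mg/kg (adjusted p 0.0638 to 0.0954). Against 1 mg/kg 2 of the 17 rose, where 2.4% of features did, Ubqln1 and Rad23b. Rad23b, a further shuttle, rose by 0.35 (adjusted p 0.0224), which was lost without mouse 1, 3 or 5 at 1 mg/kg or mouse 1 at 8 mg/kg (adjusted p 0.0520 to 0.0786). Against control Rad23b differed by 0.32 (adjusted p 0.0529). Of the 17 factors 4 had an unadjusted p under 0.05 against control (20.3% of features), the fourth being Txnl1, a thioredoxin-like protein of the 19S cap, at −0.25 (adjusted p 0.134). The maturation factor Pomp differed by 0.001 and the ubiquitin receptor Adrm1 by −0.09.

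Of the 6 ubiquitin and E1 genes 1 rose at 8 mg/kg, where 2.72% of features did, and 4 had an unadjusted p under 0.05 (20.3% of features). At 1 mg/kg 0 passed by limma and 4 had an unadjusted p under 0.05 (6.89% of features). The median difference from control was 0.25 at each dose, with the same control mice in both, and it was not recomputed under other normalizations. Ubb, a polyubiquitin gene, was the one that rose, by 0.39 ± 0.10 (adjusted p 0.0483). The difference was 0.18 with the processed signals, 0.22 with the authors' deposited ratios and 0.15 with the liver channel alone. Under median centring it was 0.40, and Ubb passed with none of these. The call was lost in 12 of 14 fits that left out 1 mouse (adjusted p 0.05 to 0.159), all except those without control mouse 2 or mouse 3 at 1 mg/kg. Ubb ratios were −0.09, 0.47, 0.21 and −0.06 in the controls and 0.42, 0.57, 0.26, 0.62 and 0.62 at 8 mg/kg, and control mouse 2 lay among the treated mice. Of the 6 genes of ubiquitin chain extraction by p97, 0 passed by limma at 8 mg/kg against control, where 4.08% of features did. An unadjusted p under 0.05 was found for 1 of them (Nploc4, −0.26), against 20.3% of features. Vcp, which encodes p97 itself, differed by 0.01.

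Of 14 genes of interferon signalling and MHC class I, 2 fell at 8 mg/kg, where 1.35% of features did, and 12 did not pass. Nlrc5, the transactivator of MHC class I genes and known to act on Psmb9, had 1.40, 1.01, 1.87 and 1.20 in the controls and 0.96, 1.36, 1.15, 0.80 and 0.57 at 8 mg/kg, with overlap. Nlrc5 fell by 0.42 on the log2 scale (SE 0.10, adjusted p 0.0300). That call was lost without any one of the 4 controls or mice 1, 2, 4 and 5 at 8 mg/kg (adjusted p 0.0530 to 0.108). Irf7 had 0.53, 0.16, 0.74 and 0.71 in the controls and −0.05, 0.06, 0.00, 0.28 and −0.03 at 8 mg/kg. It fell by 0.45 on the log2 scale (SE 0.11, adjusted p 0.0305), and lost the call without control mouse 1, 3 or 4 or mice 1, 2, 4 and 5 at 8 mg/kg (adjusted p 0.0580 to 0.115). Against 1 mg/kg the same 2 genes fell (2.87% of features did), Nlrc5 by 0.35 and Irf7 by 0.37 on the log2 scale (adjusted p 0.0354 and 0.0414). The Nlrc5 call was lost without any one of mice 3, 4 and 5 at 1 mg/kg or mice 1, 2, 4 and 5 at 8 mg/kg (adjusted p 0.0671 to 0.101). The Irf7 call was lost without control mouse 4, any one of mice 1, 2, 3 and 5 at 1 mg/kg or any mouse at 8 mg/kg (adjusted p 0.0522 to 0.121). At an unadjusted p under 0.05 there were 4 of 14 against control (20.3% of features), with H2-K1 at −0.28 (adjusted p 0.173) and Tapbp at −0.22 (adjusted p 0.181) beside the 2 that fell. Against 1 mg/kg there were 7 of 14 (21.4% of features), all below 0, with H2-K1 at −0.35 (adjusted p 0.0677) and B2m at −0.24 (adjusted p 0.0966). Tap1 differed from control by 0.02 and B2m by −0.09. No test compared these genes with Psmb8, Psmb9 and Psmb10.

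The immunoproteasome genes are expressed most strongly in leukocytes. Of 23 tested leukocyte markers, 0 passed at 8 mg/kg against control by limma (4.08% of features did), with 2 at an unadjusted p under 0.05 (20.3% of features). These were Marco, of Kupffer cells, at 0.66 (adjusted p 0.0617), and Siglech, of dendritic cells, at 0.25 (adjusted p 0.215). The other Kupffer cell markers ran from −0.09 (Clec4f) to 0.19 (Csf1r), and the other dendritic cell markers were Itgax at 0.18 and Flt3 at −0.15. At 1 mg/kg 0 of the 23 passed by limma, as did 0% of features. Unadjusted p was under 0.05 for 2, C1qa and C1qb of Kupffer cells (6.89% of features). The 7 Kupffer cell markers differed from control by 0.11 to 0.31 at that dose. The mean log2 ratio of Ptprc and Coro1a ran from −2.38 to −2.12 in the controls, from −2.29 to −2.02 at 1 mg/kg and from −2.45 to −1.85 at 8 mg/kg. The 4 tested T and NK cell markers ran from 0.58 to 1.03, from 0.50 to 1.15 and from 0.56 to 0.84, and the 7 Kupffer cell markers from 3.14 to 4.02, from 3.29 to 4.20 and from 3.31 to 4.12. These means were not adjusted for slide, and the highest Kupffer cell mean of each group was that of the mouse on slide 3. Cd8a, Klrk1, Gzmb, Il7r, Cd79a and Xcr1 did not reach the background criterion. Of 8 hepatocyte markers, Cps1 fell by 0.34 on the log2 scale (adjusted p 0.0337), where 1.35% of features fell, and its call was lost without any one of the 4 controls, mouse 2 at 1 mg/kg or mice 1, 2, 3 and 5 at 8 mg/kg (adjusted p 0.0504 to 0.107). The other 7 did not pass, and Serpina1c differed by 0.21 (adjusted p 0.145). The part of cell composition in the proteasome values was not tested.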

How the data were processed

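Liver RNA of 14 mice was measured on 2-colour Agilent SurePrint G3 mouse arrays. Spot intensities, flags and processed intensities were read by the submitters with Feature Extraction 10.7.3.1, per the file headers. A deposited table of the authors held linear ratios of liver over reference, with a normalization not given in the sources used here. Log2 of its columns correlated at 0.992 to 0.995 with the log2 ratios computed here from the deposited intensities, and the column medians were 0.976 to 0.990.

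Median spot signals were corrected with normexp (offset 50) against the median local background and normalized by loess within arrays in limma 3.58.1 (R 4.3.3), with control spots at weight 0 and flagged spots left out. Spots of a probe were averaged, the probe brightest in the liver channel stood for its gene, and features had to be well above background on at least 4 of 14 arrays. RefSeq accessions named 26413 probes and left 29268 unnamed. One limma model of group with slide as a block was fitted to 21963 features, with Benjamini-Hochberg adjustment over all of them and a threshold of 0.05. It was tested on simulated data. The number of arrays limits the precision.

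The members and gene lists were chosen with earlier results of these data known. Values in every mouse are given for the 3 immunoproteasome and 2 PA28 genes, for members that pass, and for the member of each other class with the smallest p at 8 mg/kg, and other members whose values are given mouse by mouse are said to have been named after their values were seen. The interval given is the 95% interval of the fit. Alternatives changed the background correction, normalization, channel, source signal, filter, probe choice, slide term and mice. Some results are not reported here because they name withheld items.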

Additional observations from a re-analysis of the deposited data

Results flagged for a closer look

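In the control group, replicate 3 had a log2 ratio of 0.65 for Psme2 (PA28 beta), apart from the other 3 controls at 0.27 to 0.31. The gap was 0.873 of the group's range. These values were not adjusted for slide. Control mouse 3 lay on slide 3, as did the mouse with the highest Psme2 ratio at 8 mg/kg (mouse 2, 0.71). Of the variance of Psme2, 75.4% lay between slides, and a part of the slide in this gap was not tested. It was the only one of 33 groups of values looked at, over 11 named members, where 1 mouse stood so far apart (3.03%), and chance marks about 1 in 20.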

How the results depend on the processing

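Each comparison was recomputed under 27 alternatives. No proteasome gene passed at 1 mg/kg against control in any of them. At 8 mg/kg against control 1 gene passed with the liver channel alone (Psmd9, lower) and 1 under median centring (Psmd5, higher), and 0 in the other 25. At 8 against 1 mg/kg the count ran from 0 to 1 when single mice were left out, the 1 being Psmd2. The median over the 48 genes at 1 mg/kg moved from 0.05 to −0.023 with processed signals, −0.013 with the liver channel alone and 0.21 under median centring, which put the median of all features at 0.15. At 8 mg/kg it moved from 0.02 to 0.18 under median centring (all features 0.14), and ran from −0.0075 to 0.072 when single mice were left out, the highest without control mouse 2. Calls over all features ran from 122 to 1350 at 8 mg/kg against control, from 150 to 1250 at 8 against 1 mg/kg, and from 0 to 4 at 1 mg/kg. With no slide term they were 273 and 297 in the comparisons with 8 mg/kg, with processed signals 388 and 429, and with only the arrays compared 303 at 8 mg/kg against control. Nfe2l2 passed in all 27 alternatives in both comparisons with 8 mg/kg, Ubqln1 in 20 and 26, Zfand2a in 14, Irf7 in 13 and 12, Nlrc5 in 12 and 11, Cps1 in 9 and Ubb in 4. Rad23b passed in 17 at 8 against 1 mg/kg, and in 4 at 8 mg/kg against control, where the main fit did not call it. The cause of these losses was not tested. With the replicate block in place of the slide, 0 proteasome genes passed in every comparison and 122 features did at 8 mg/kg against control. Mice of the same number correlated at 0.086 to 0.244 on the same slide and at −0.425 to 0.229 on different slides, so the numbers were not taken as pairs. Psmc3ip was above background on 9 arrays only.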
